A study of Mus musculus with 10 samples.

Results

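The 9 genes described here are transcripts that are largely restricted to the early embryo, the germ line and pluripotent cells in culture: *Dppa2*, *Dppa3*, *Dppa4*, *Dppa5a*, *Utf1*, *L1td1*, *Fbxo15*, *Tcl1* and *Klf17*. They were chosen by name, as markers of the embryonic state, from the 18901 genes listed in the deposited table. Earlier results of these data were known when they were chosen. All 9 were listed, and all 9 passed the filter on low values that left 17075 genes for testing. The RNA-sequencing experiment has 10 poly(A) libraries from 5 mouse lines, all from a cross of the mf1 and 129 strains. Oct4/GFP mouse embryonic fibroblasts (MEF), which carry a GFP reporter of *Oct4*, were sampled at passages 2 and 4 in serum medium. The remaining lines were sampled at passages 5 and 25 in KSR+LIF, a serum-replacement medium with leukaemia inhibitory factor. They are a pre-iPS line, 1 iPS line derived without rNetrin-1 ('control'), and clones 1 and 2 of 'rNetrin-1-derived' iPS cells. The iPS lines came from Oct4/GFP MEF infected with retroviruses that carry Oct4, Sox2, Klf4 and c-Myc, with recombinant Netrin-1, a secreted guidance protein, added for clones 1 and 2. Pre-iPS cells are a partially reprogrammed line in which the Oct4/GFP locus stays off and the retroviruses stay on.

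Each line is 1 clone or 1 culture sampled at 2 passages, so a p-value given here measures the spread between such libraries and not between independently derived clones. The control condition rests on 1 line. The study's methods name gelatin or irradiated MEF as the support for pre-iPS and iPS cells, without saying which was used for these libraries. Reads on genes were 38110410 to 52946856 per library. The summed level of 10 fibroblast markers, none of them at 0, was 82060 to 149800 in the 8 pre-iPS and iPS libraries and 3934840 to 4115530 in MEF. The 8 pluripotent cell markers summed to 137793 to 181067 in the iPS libraries, 445780 to 470386 in pre-iPS cells and 2406 to 2910 in MEF, so the labels of MEF and iPS cells matched their markers. Primitive endoderm markers (6 genes) summed to 1497 to 3278 in iPS libraries, 1706 to 2414 in pre-iPS cells and 7985 to 8069 in MEF, where *Sox17* was at 0. The MEF sum was mostly *Dab2*, with a mean of 7395 against 1677 in iPS lines. *Gata6* also had a higher mean in MEF, while *Gata4*, *Sox17*, *Sox7* and *Foxa2* had lower means there than in iPS lines. Trophoblast markers (6 genes) summed to 735 to 1488, 1362 to 1742 and 959 to 1005, with *Cdx2* at 0 in MEF. *Tfap2a* (mean 734) and *Gata3* (237) made up most of the MEF sum, and the other trophoblast markers had lower means in MEF than in iPS lines. In the pre-iPS line the *Pou5f1*, *Sox2* and *Klf4* counts can include retroviral transcripts, and these cannot be told apart from endogenous ones. None of the 9 genes was delivered by the retroviruses. Levels are normalized read counts, that is, reads brought to a common library size by the authors, and 1 read was worth 0.888 to 1.18 of this unit.

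In the mouse embryo these genes mark successive windows of early development. *Dppa3* protein is stored in the egg, *Dppa2* and *Dppa4* act on chromatin at the onset of embryonic transcription, and *Utf1*, *L1td1*, *Fbxo15* and *Dppa5a* are known from the inner cell mass and embryonic stem cells. In somatic cells most of them are silenced, with DNA methylation at CpG-bearing promoters as a known layer of that silencing, and their return is a common readout of reprogramming.

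The CpG content just upstream of the start site ranged from 4 to 14 CpG among the genes with a promoter entry. For 4 of the 9 genes, *Utf1*, *L1td1*, *Tcl1* and *Klf17*, the 250 bases before the RefSeq start on GRCm38.p6 are printed 5′ to 3′ on the strand of the gene, with each CpG in capitals. They include *L1td1*, whose pre-iPS level lay inside the iPS range, and *Utf1*, which was lower in pre-iPS than in iPS cells. *Tcl1* and *Klf17* are the members with the lowest mean levels in iPS lines.
Utf1, chr7:139943606-139943855, plus strand: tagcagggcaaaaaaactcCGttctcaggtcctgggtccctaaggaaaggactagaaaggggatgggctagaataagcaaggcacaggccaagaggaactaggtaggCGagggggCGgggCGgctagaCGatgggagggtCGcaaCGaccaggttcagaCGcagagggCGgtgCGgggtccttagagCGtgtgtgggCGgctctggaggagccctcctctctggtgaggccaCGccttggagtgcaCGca
L1td1, chr4:98726504-98726753, plus strand: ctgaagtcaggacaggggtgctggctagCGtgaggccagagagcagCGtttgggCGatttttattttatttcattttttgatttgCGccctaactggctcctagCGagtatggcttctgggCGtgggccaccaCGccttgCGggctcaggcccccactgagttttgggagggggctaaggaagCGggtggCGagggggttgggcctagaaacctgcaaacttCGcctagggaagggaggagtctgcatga
Tcl1, chr12:105222738-105222987, minus strand: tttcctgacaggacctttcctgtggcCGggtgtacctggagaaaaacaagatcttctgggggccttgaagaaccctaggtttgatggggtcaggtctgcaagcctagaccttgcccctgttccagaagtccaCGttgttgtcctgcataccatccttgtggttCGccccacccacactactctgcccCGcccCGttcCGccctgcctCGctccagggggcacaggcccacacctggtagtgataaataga
Klf17, chr4:117765667-117765916, minus strand: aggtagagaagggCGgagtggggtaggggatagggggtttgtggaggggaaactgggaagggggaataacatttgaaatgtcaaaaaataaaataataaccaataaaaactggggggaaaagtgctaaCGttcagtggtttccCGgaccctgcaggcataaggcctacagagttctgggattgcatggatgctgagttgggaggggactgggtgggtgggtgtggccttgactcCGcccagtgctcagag
The *Utf1* window held 14 CpG and the *L1td1* window 11. *Tcl1* held 7 and *Klf17* 4, against a median of 6 over the windows of 32851 RefSeq starts. As many or more CpG were found in 29.4% of all windows for *Utf1*, 35.6% for *L1td1*, 46.3% for *Tcl1* and 62.2% for *Klf17*. The windows were searched on both strands for the octamer ATGCAAAT, the Sox motif CATTGTT, the Esrrb motif AAGGTCA, the Klf motif GGGTGTG and the TATA box TATAAA. The *Klf17* window held GGGTGTG, which occurs in 6.93% of all windows. The other windows held none of the motifs, which occur in 1.60% (octamer), 3.29% (Sox), 4.08% (Esrrb) and 12.4% (TATA box) of all windows. These are matches of letters and were not tested for binding or methylation.

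The levels of the 9 genes in every library separate MEF from the other lines. All 9 were lower in MEF than in each of the 6 iPS libraries without overlap, against 41.9% of all genes tested. Of the 17075 genes, 26.6% were called lower in MEF than in iPS cells, where a call needs a limma adjusted p under 0.05 and a difference of 1 or more, in either direction, on log2(value + 1). All 9 genes were called. Their median log2 fold change was -8.69, and it was the same with *Tcl1*, which had no read in MEF, set at its bound. The median of all genes was -0.09. As these are bulk samples, fewer cells that transcribe a gene and less RNA per cell cannot be told apart in any of these values.

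**Figure D1:**
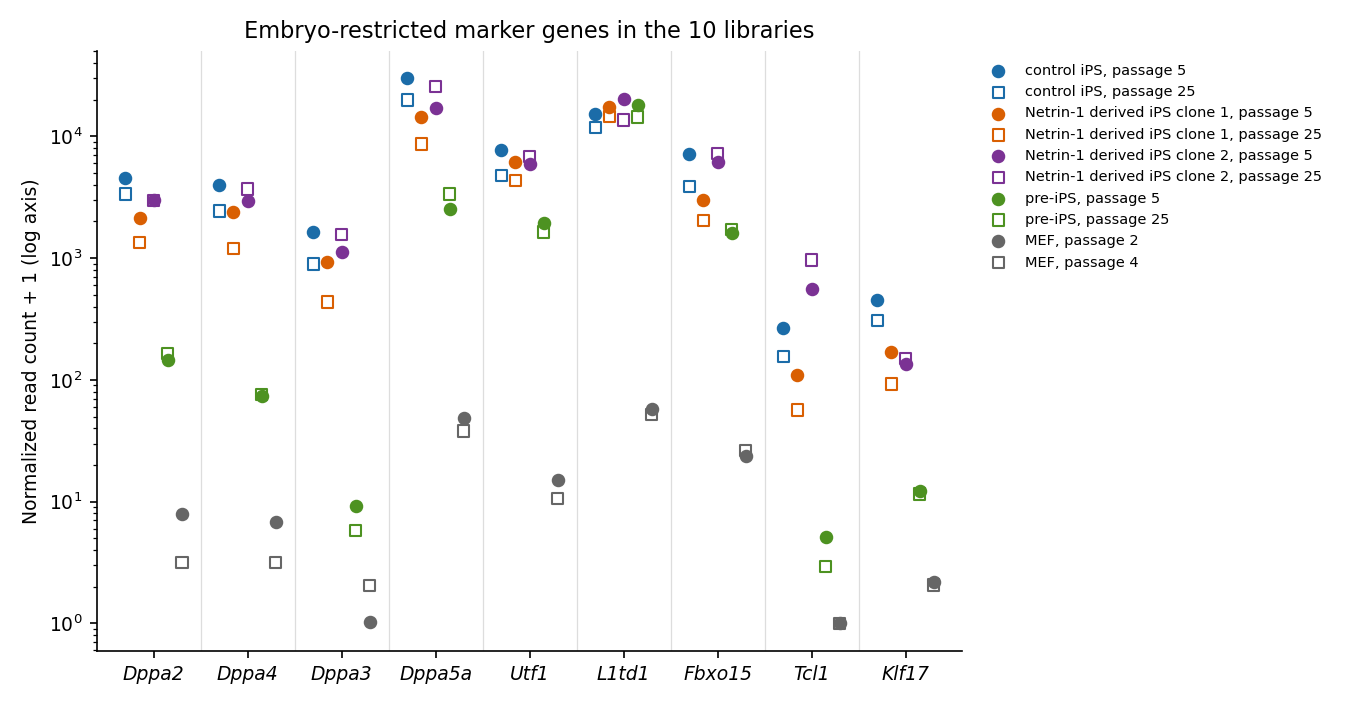
Normalized read count plus 1 (log axis) of the 9 genes in each of the 10 libraries, coloured by line, with filled circles for the earlier and open squares for the later passage. MEF libraries lie lowest for every gene, and *L1td1* is the gene whose 2 pre-iPS points lie among the iPS points.

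*Dppa2* and *Dppa4* encode chromatin proteins with a SAP domain that bind DNA as partners, and they are neighbours on chromosome 16 of GRCm38, with *Dppa4* at 48283733 to 48294237 and *Dppa2* at 48303908 to 48319723, both on the plus strand and 9670 bases apart. *Dppa2* stood at 4583 and 3359 in the control line at passages 5 and 25, 2127 and 1340 in clone 1, 2995 and 2963 in clone 2, 145 and 163 in pre-iPS cells and, in MEF at passages 2 and 4, 6.89 and 2.17. *Dppa4* stood in the same order at 4016 and 2426, 2373 and 1193, 2955 and 3678, 72.4 and 74.9, and 5.77 and 2.16. Both genes were lower in pre-iPS cells than in any iPS library and lowest in MEF. The log2 fold change of pre-iPS cells against iPS lines was -4.13 for *Dppa2* (SE 0.32, limma adjusted p = 3.82e-05). For *Dppa4* it was -5.12 (SE 0.35, limma adjusted p = 1.90e-05). The pre-iPS mean was 5.32% of the iPS mean for *Dppa2* and 2.66% for *Dppa4*, and the MEF means were 0.157% and 0.143%. These MEF means rest on 6 and 2 reads of *Dppa2* and 5 and 2 reads of *Dppa4*. Both were higher in pre-iPS cells than in MEF on the log2 scale, *Dppa2* by 4.95 (SE 0.39, limma adjusted p = 6.66e-06) and *Dppa4* by 4.01 (SE 0.43, limma adjusted p = 3.94e-05).

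*Dppa3*, also called Stella, encodes a maternal factor that protects the early embryo's genome from changes in DNA methylation. It lies on chromosome 6 of GRCm38 at 122626410 to 122630272, on the plus strand. Its level was 1646 and 894 in the control line, 932 and 436 in clone 1, 1121 and 1565 in clone 2, 8.16 and 4.8 in pre-iPS cells and, in MEF, 0.02 and 1.05. The pre-iPS libraries had 8 and 5 reads of it and the MEF libraries 0 and 1. Pre-iPS cells had 0.590% of the iPS mean of *Dppa3*, where they had 0.855% for *Tcl1*. Over MEF the iPS mean was 1969 times higher, with a 95% Poisson interval of 353 to 77790 that covers the counting error of the MEF read alone. The annotation also holds a processed copy, *Dppa3-ps*, so its counts are uncertain where reads fit both.

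*Dppa5a*, an RNA-binding protein with a KH domain, had the highest mean over the iPS libraries, while *L1td1* stood above it in 7 of the 10 libraries. It lies on chromosome 9 at 78367052 to 78368177 on the minus strand, beside *Ooep*. It stood at 30113 and 19818 in the control line, 14425 and 8646 in clone 1, 17144 and 25593 in clone 2, 2551 and 3367 in pre-iPS cells and, in MEF, 48.1 and 37.1. Pre-iPS cells had 15.3% of the iPS mean, a log2 difference of -2.61 (SE 0.25, limma adjusted p = 0.000121). They were 6.08 above MEF on the log2 scale (SE 0.31, limma adjusted p = 5.04e-07). The annotated relatives *Dppa5b* and *Dppa5c* make its reads uncertain where they fit more than 1 copy.

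*Utf1* encodes a chromatin-bound factor of pluripotent cells that acts at developmental genes, and its window with 14 CpG is printed above. It stood at 7739 and 4764 in the control line, 6100 and 4343 in clone 1, 5975 and 6822 in clone 2, 1924 and 1640 in pre-iPS cells and, in MEF, 14.0 and 9.56. The 3 iPS lines overlapped one another, and pre-iPS cells lay below all of them at 29.9% of the iPS mean. MEF had 0.198% of it, a log2 difference of -8.86 (SE 0.22, limma adjusted p = 8.83e-09).

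*L1td1* encodes an RNA-binding protein derived from the LINE-1 retrotransposon, and it was the exception among the 9 genes. It lies on chromosome 4 at 98726734 to 98738480 on the plus strand. Its level was 15166 and 11871 in the control line, 17282 and 14587 in clone 1, 20357 and 13648 in clone 2, 17982 and 14438 in pre-iPS cells and, in MEF, 56.6 and 50.7. The pre-iPS libraries lay inside the range of the iPS libraries, with 105% of the iPS mean. The log2 fold change of pre-iPS cells against iPS lines was 0.08 (SE 0.17, limma adjusted p = 0.737), and its sign turned in 2 fits that each left out 1 library, to -0.08 without pre-iPS passage 5 and -0.02 without clone 2 passage 25. Against MEF the pre-iPS level was higher by 8.21 on the log2 scale (SE 0.20, limma adjusted p = 1.79e-08).

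*Fbxo15* encodes an F-box protein, the substrate-binding part of a ubiquitin ligase, and its locus was an early reporter of reprogramming. It lies on chromosome 18 at 84934782 to 84981473 on the plus strand and overlaps *Timm21* on the other strand, and the library kit does not keep the strand, so reads in the overlap cannot be told apart. Its level was 7174 and 3872 in the control line, 3019 and 2034 in clone 1, 6145 and 7211 in clone 2, 1606 and 1723 in pre-iPS cells and, in MEF, 22.6 and 25.3. Pre-iPS cells had 33.9% of the iPS mean, and this was the smallest of the called differences from the iPS lines (log2 fold change -1.41, SE 0.23, limma adjusted p = 0.00166). Clone 1 at passage 25 came closest to them.

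*Tcl1* encodes a coactivator of the Akt kinase and lies on chromosome 12 at 105216750 to 105222793 on the minus strand. It stood at 265 and 155 in the control line, 108 and 55.4 in clone 1, 560 and 961 in clone 2, and 4.08 and 1.92 in pre-iPS cells, which had 4 and 2 reads. Both MEF libraries had 0 reads. With 3 reads over both MEF libraries as the limit that a count of 0 allows, the iPS mean was at least 210-fold higher than MEF. The pre-iPS mean was 1.79 times the value of that limit. This leaves out the counting error of the 4 and 2 pre-iPS reads, so it is not a lower bound. The log2 fold change of pre-iPS cells against iPS lines was -5.88 (SE 0.38, limma adjusted p = 1.52e-05).

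*Klf17*, a Krüppel-like transcription factor, had the lowest mean over the iPS libraries, although *Tcl1* stood below it in the 4 control and clone 1 libraries. It lies on chromosome 4 at 117757836 to 117765648 on the minus strand. Its level was 448 and 308 in the control line, 168 and 91.4 in clone 1, 133 and 149 in clone 2, and 11.2 and 10.6 in pre-iPS cells. MEF had 1 read in each library, and the iPS mean was 194 times higher with a 95% Poisson interval of 53.6 to 1598. The pre-iPS mean was 5.04% of the iPS mean (log2 fold change -3.98, SE 0.28, limma adjusted p = 2.30e-05).

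Pre-iPS cells therefore stood at different shares of the iPS level for these markers. Of the 9 genes, 8 were called lower in pre-iPS than in iPS cells, against 11.6% of all genes tested, and the same 8 did not overlap the iPS libraries, against 21.7%. The median log2 fold change of the 9 was -3.98 and that of all genes 0.00. The count was 8 in each of 11 other settings and in each of 10 fits that left out 1 library. By share of the iPS mean, the order was *Dppa3*, *Tcl1*, *Dppa4*, *Klf17*, *Dppa2*, *Dppa5a*, *Utf1*, *Fbxo15* and *L1td1*, from 0.590% to 105%. The order was the same against the control line or clone 1 alone. Against clone 2 alone 3 neighbouring pairs changed places: *Tcl1* (0.394%) came below *Dppa3* (0.482%), *Dppa2* (5.17%) below *Klf17* (7.73%) and *Fbxo15* (24.9%) below *Utf1* (27.9%). All 9 were called higher in pre-iPS cells than in MEF, against 22.4% of all genes, with a median of 4.95 against 0.06 over all genes. *Tcl1* and *Dppa3*, with 4 and 2 and with 8 and 5 pre-iPS reads, were the weakest of these calls. *Tcl1* lost its call with a pseudocount of 5 (adjusted p = 0.172), *Dppa3* with quantile normalization (adjusted p = 0.0738), and both with edgeR's quasi-likelihood test on the recovered reads (adjusted p = 0.0919 and 0.109).

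**Figure D2:**
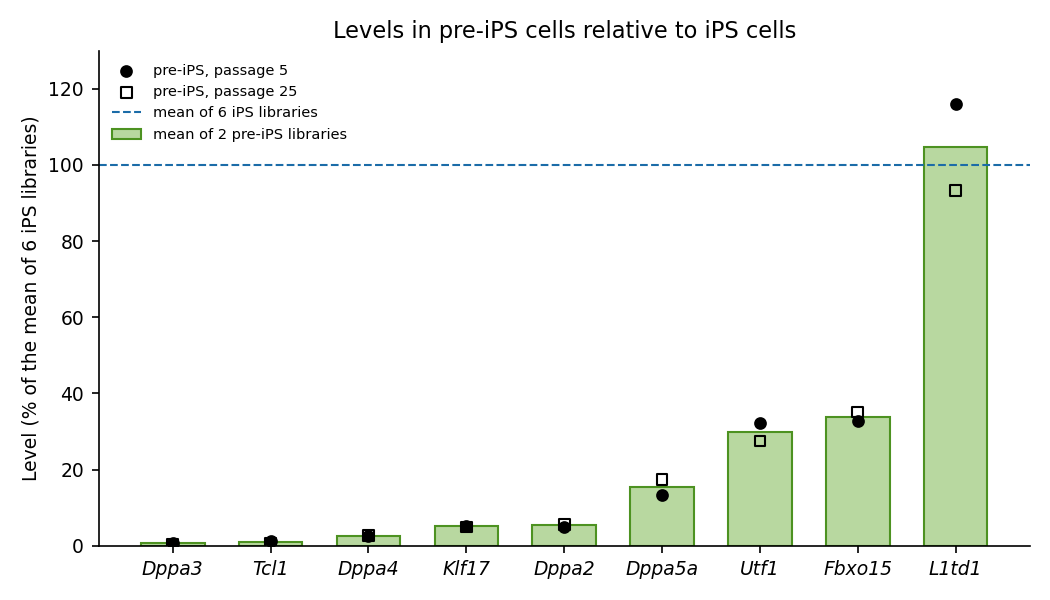
Level in pre-iPS cells as a percentage of the mean of the 6 iPS libraries; bars are the mean of 2 libraries, points the libraries at passages 5 and 25, and the dashed line is 100%. The genes run from 0.590% for *Dppa3* to 105% for *L1td1*, and the passages lie furthest apart for *L1td1*.

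Per kilobase of annotated exon, levels can be set side by side between genes. In the iPS lines *Dppa5a* had 31163 ± 12487 normalized reads per kilobase (SD, n = 6). *L1td1* followed with 4879 ± 938 and *Utf1* with 4855 ± 1029, and these neighbours did not differ beyond their spread. *Dppa4* (1669 ± 612), *Fbxo15* (1461 ± 664), *Dppa3* (1232 ± 508) and *Dppa2* (1183 ± 451) lay closer to each other than the SD of *Dppa4*. *Tcl1* (190 ± 189) and *Klf17* (90.0 ± 56.3) were lowest. In pre-iPS cells *L1td1* had a mean of 5107 and *Dppa5a* of 4781 per kilobase, with the order turned between the passages (5666 and 4122 at passage 5, 4549 and 5440 at passage 25). Below them in both libraries came *Utf1* at 1452, *Fbxo15* at 495, *Dppa2* at 63.0, *Dppa4* at 44.3, *Dppa3* at 7.26, *Klf17* at 4.54 and *Tcl1* at 1.63.

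Other markers of pluripotency were also split in pre-iPS cells. Of 6 further transcripts known from the same screens for embryonic stem cell genes, 4 were called lower and 0 higher. *Dnmt3l*, a cofactor of the DNA methyltransferases, had 0.459% of its iPS mean, *Khdc3*, an egg and embryo protein, 2.40%, and *Nanog*, a core pluripotency factor, 6.89%. *Sox15* kept 37.0%. *Eras*, an embryonic Ras protein, was at 129% and *Gdf3*, a growth factor, at 120%, and neither was called. Of the 6 genes known to be controlled through joint Oct4 and Sox2 elements, *Nanog* and *Lefty1* were called lower and *Pou5f1* was called higher. *Fgf4*, *Sox2* and *Spp1* were not called. *Sox2* stood at 188% of its iPS mean (log2 fold change 0.93, limma adjusted p = 0.000516), under the fold that makes a call. The *Pou5f1* and *Sox2* counts in pre-iPS cells can include retroviral transcripts. Of 9 transcription factors of the naive state, 6 were called lower, among them *Esrrb* at 0.720% and *Prdm14* at 3.63% of the iPS mean. *Zfp42*, the Rex1 gene, was not called and stood at 81.9%.

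The relatives and neighbours of the 9 genes were measured too. *Ooep*, which lies beside *Dppa5a*, stood at 697 in iPS lines, 35.0 in pre-iPS cells and 19.0 in MEF, where *Dppa5a* had 19290, 2959 and 42.6. The pre-iPS level was thus 5.03% of the iPS level for *Ooep* and 15.3% for *Dppa5a*. *Mtcp1*, a relative of *Tcl1*, was at 92.6% of its iPS mean in pre-iPS cells (log2 fold change -0.09, limma adjusted p = 0.671). The list of relatives and neighbours had 14 genes, of which 7 were listed and 6 tested, and 3 were called lower and 1, *Klf4*, higher in pre-iPS cells. The *Klf4* gene was delivered by a retrovirus.

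*Dppa2* and *Dppa4* are known upstream factors of genes that are transcribed at the 2-cell stage. Of 7 genes of that programme, 6 were matched and tested. *Duxf3* was not matched, as the table lists a symbol *Dux* that the reference tables used here do not pair with it, and it is given no value. All 6 tested genes were called lower in pre-iPS cells, with a median log2 fold change of -7.16. *Zscan4c*, for example, had a mean of 4907 in the control line, 1921 in clone 1, 1084 in clone 2, 6.96 in pre-iPS cells and 4.48 in MEF. The summed level of the 6 genes was 18915 to 28182 in the control line, 7495 to 10047 in clone 1, 4249 to 5695 in clone 2, 52.8 to 73.5 in pre-iPS cells and 17.1 to 32.5 in MEF. *Zscan4* and *Tcstv* genes are multigene families, so their counts are uncertain where reads fit several copies.

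The second question of the design is whether iPS clones derived with rNetrin-1 differ from the control line in these genes. Between the mean of both clones and the control, 1 of 9 genes was called, *Klf17*, while 2.11% of all genes were called in either direction. The log2 fold change of *Klf17* was -1.48 (SE 0.30, limma adjusted p = 0.0326), and all 4 clone libraries, at 91.4 to 168, lay below both control libraries, at 308 and 448. Leaving out clone 1 passage 5 kept the call (adjusted p = 0.0269). Leaving out any other library ended it, the pre-iPS and MEF libraries included, with adjusted p of 0.05003 to 0.199, and so did a fit of only the iPS lines (adjusted p = 0.0964). The other 8 genes had log2 fold changes from -0.81 (*Dppa2*, SE 0.34, limma adjusted p = 0.262) to 0.28 (*L1td1*, SE 0.18, limma adjusted p = 0.476). The median of the 9 was -0.40 and that of all genes -0.01.

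The 2-cell-stage genes were lower in the same clones, with 4 of 6 called between the mean of both clones and the control and a median log2 fold change of -1.81. *Zscan4c* had -1.77 (limma adjusted p = 0.00532) and *Zfp352* -1.86 (limma adjusted p = 0.0378). Their part in the *Klf17* value was not tested. The germ cell markers summed to 5955 to 7402 in the control line, 2021 to 3344 in clone 1 and 4012 to 5853 in clone 2, with none of 6 called for the mean of both clones, 1 (*Nanos3*, chosen after its value was seen) called higher in clone 2, and none at 0 in any line.

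Against the control, none of the 9 genes was called in clone 1 and none in clone 2, in limma. At an unadjusted limma p under 0.05 there were 5 of 9 in clone 1, against 17.2% of all genes, and 2 of 9 in clone 2, against 18.7%. The shares of all genes called were 1.41% for clone 1 and 2.42% for clone 2. In clone 1, 8 of 9 genes had a negative log2 fold change with a median of -1.09, against -0.01 over all genes. Both clone 1 libraries lay below both control libraries for 6 genes, *Dppa2*, *Dppa4*, *Dppa5a*, *Fbxo15*, *Tcl1* and *Klf17*, and 24.2% of all genes showed that. *Klf17* had -1.58 (SE 0.34, limma adjusted p = 0.0561), *Fbxo15* -1.09 (SE 0.28, limma adjusted p = 0.0882) and *Dppa5a* -1.13 (SE 0.31, limma adjusted p = 0.107). With the passage as a replicate block, 2 genes were called in clone 1, *Klf17* (adjusted p = 0.0276) and *Dppa2* (-1.22, adjusted p = 0.0166), while the share of all genes called was 2.87%. DESeq2 on the recovered reads called 4, *Klf17*, *Dppa2*, *Fbxo15* and *Dppa5a*, and edgeR called *Klf17* and *Dppa2*. The shares of all genes were 2.99% with DESeq2 and 1.66% with edgeR.

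In clone 2 the median was 0.08, against 0.00 over all genes. *Tcl1* had a higher value than in the control, at 1.85 on the log2 scale (SE 0.47, limma adjusted p = 0.0693), and *Klf17* a lower one, at -1.39 (SE 0.34, limma adjusted p = 0.0629). Neither passed the threshold in the fit over all lines. With the passage as a replicate block both did, at adjusted p of 0.0411 and 0.0304, and 4.16% of all genes were called. The other 7 genes lay between -0.40 and 0.34, with adjusted p of 0.468 or more.

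**Figure D3:**
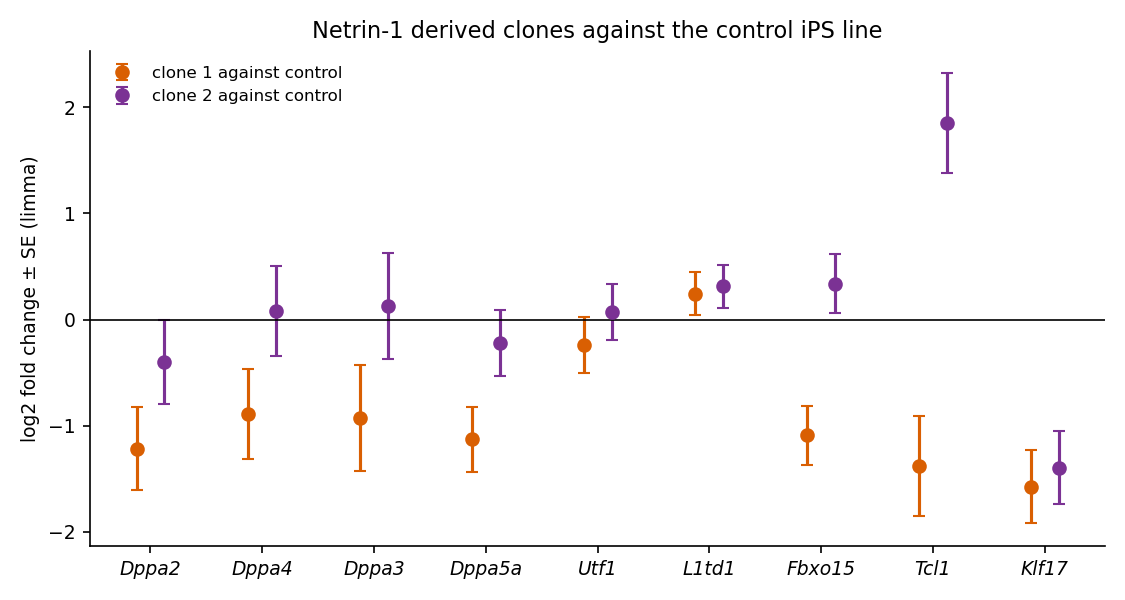
log2 fold change of rNetrin-1-derived clones 1 and 2 against the control line for the 9 genes, from limma over 10 libraries, with bars of 1 SE. *Klf17* lies below 0 in both clones (-1.58 and -1.39), and *Tcl1* lies at -1.38 in clone 1 and 1.85 in clone 2.

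Between the clones, 2 of the 9 genes were called. *Tcl1* was called higher in clone 2 than in clone 1, at 3.23 on the log2 scale (SE 0.47, limma adjusted p = 0.0222), and *Fbxo15* at 1.43 (SE 0.28, limma adjusted p = 0.0489). Of all genes, 0.966% were called between the clones. Both clone 2 libraries lay above both clone 1 libraries for 6 of 9 genes, *Dppa2*, *Dppa3*, *Dppa4*, *Dppa5a*, *Fbxo15* and *Tcl1*, and 22.3% of all genes showed that. The median of the 9 was 0.91 and that of all genes -0.01. The *Tcl1* call was lost without clone 1 passage 5 (adjusted p = 0.0570), clone 1 passage 25 (0.151), clone 2 passage 25 (0.155), MEF passage 2 (0.0637) or MEF passage 4 (0.0645). The *Fbxo15* call was kept only without 1 of the control libraries (adjusted p = 0.0291 and 0.0290), and was lost without any of the other 8 (0.0676 to 0.287). Neither gene was called in a fit of only the clones (adjusted p = 0.191 and 0.197).

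Naive-state factors followed the same direction between the clones in the fit over all lines, where 0.966% of all genes were called in either direction. In that fit 6 of 9 were called higher in clone 2 than in clone 1. Among them were *Nanog* (1.37, limma adjusted p = 0.0221) and *Zfp42* (2.27, limma adjusted p = 0.0121). A fit of only the clones called 2 of all 17075 genes higher in clone 2, so at most 2 of these calls could hold there. The clones also differ in sex-linked transcripts. *Xist*, the RNA of the inactive X chromosome, had 140 to 173 reads in clone 1, 270 to 328 in the control line, 22128 to 22333 in clone 2 and 15713 to 22992 in pre-iPS cells. The Y-linked *Ddx3y* had 1440 to 1846 reads in clone 1 and the control and 1 or 2 in clone 2 and pre-iPS cells. MEF had 44538 to 50201 reads of *Xist* and 302 to 367 of *Ddx3y*. The sex-linked difference and the clone cannot be told apart here. The same difference lies between clone 2 and the control, and between pre-iPS cells and both the control and clone 1. It cannot be told apart from the line in those comparisons either.

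Over the 6 iPS libraries the genes varied to very different degrees. *Tcl1* had an SD of 1.52 on the log2 scale and a 17.3-fold range, and 0.317% of the 13869 genes with an iPS mean of at least 50 varied as much. *Klf17* had an SD of 0.84 (4.17% of genes), *Fbxo15* 0.75 (5.61%), *Dppa3* 0.70 (6.71%), *Dppa5a* 0.64 (8.13%), *Dppa4* 0.63 (8.56%) and *Dppa2* 0.61 (9.0%). *Utf1*, at 0.31 (27.7%), and *L1td1*, at 0.27 (33.5%), varied least.

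The same libraries show which genes went up and down together. Pearson's r of log2(value + 1) over the 6 iPS libraries was 0.69 to 1.00 for the 15 pairs among *Dppa2*, *Dppa3*, *Dppa4*, *Dppa5a*, *Fbxo15* and *Utf1*, with a median of 0.91. The closest pair was *Dppa3* and *Dppa4*, on different chromosomes, at 0.997. *Dppa2* and *Dppa4*, the neighbours, had 0.90. *L1td1* had -0.34 to 0.28 with the remaining genes. *Tcl1* had 0.62 (*Dppa2*) to 0.91 (*Fbxo15*) with the genes of the 15 pairs, a range that overlaps theirs. *Klf17* had 0.84 with *Dppa2* and 0.13 with *Tcl1*. The 6 points are 2 passages of each of 3 lines, so they are not independent, and the values are a description of these libraries.

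**Figure D4:**
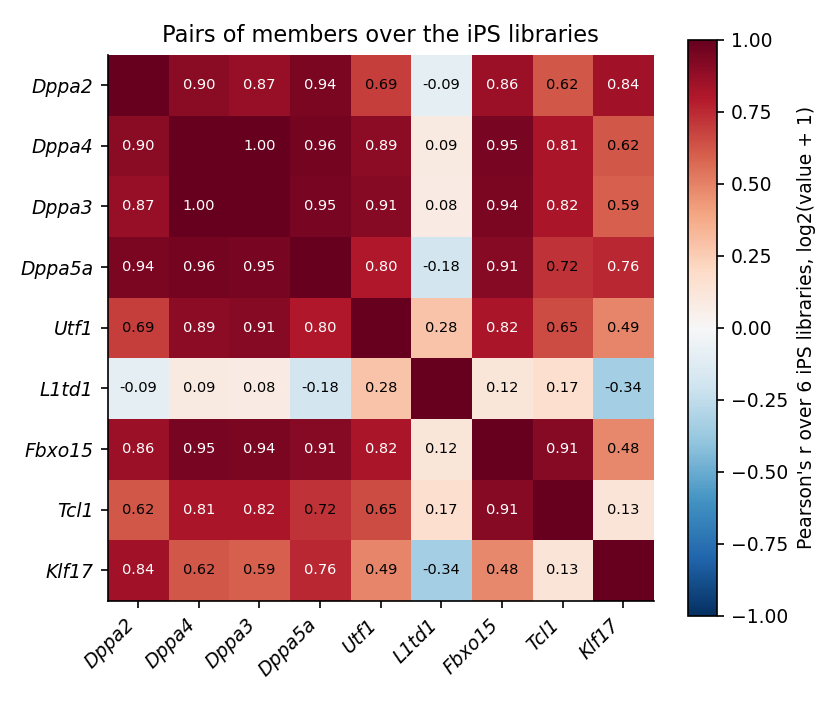
Pearson's r of log2(value + 1) between pairs of the 9 genes over the 6 iPS libraries (colour scale from -1 to 1). Pairs among *Dppa2*, *Dppa4*, *Dppa3*, *Dppa5a*, *Utf1* and *Fbxo15* lie at 0.69 to 1.00, and *Tcl1* has 0.62 to 0.91 with these genes. The row of *L1td1* stays between -0.34 and 0.28.

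The genes with the profile most like each of the 9 differed from gene to gene. Over all 10 libraries, *Dppa5a* was closest to *Trim6* (r = 0.999), *Utf1* to *Zscan10* (0.999), *L1td1* to *Ezr* (0.999), *Dppa4* to *Foxh1* (0.999), *Fbxo15* to *Gtsf1l* (0.998), *Klf17* to *Nr6a1* (0.998), *Dppa3* to *Calb2* (0.997), *Dppa2* to *Dis3* (0.995) and *Tcl1* to *Foxr2* (0.993). Over the 6 iPS libraries *Dppa3* and *Dppa4* named each other among their 3 closest genes, *Tuba3a* was near both (0.993 and 0.999), and *Tcl1* was closest to *Triml1* (0.999) and *Triml2* (0.996). These values rest on 10 libraries of 5 lines or 6 libraries of 3 lines and are given as a description.

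The last comparison is that of late with early passage. None of the 9 genes was called between passages 25 and 5 over the 4 lines in limma with the line as a block, against 1.69% of all genes, and none was called by edgeR or DESeq2. At an unadjusted limma p under 0.05 there were 2 of 9, *L1td1* and *Utf1*, against 29.1% of all genes. The log2 fold change of *L1td1* was -0.37 (SE 0.06, limma adjusted p = 0.0148), under the fold that makes a call, and it was lower at passage 25 in each of the 4 lines.

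The change within each line, with 1 library at each passage, went in different directions. All 9 genes were lower at passage 25 in the control line, where 54% of all genes were, with a median of -0.70, and all 9 in clone 1, where also 54% were, with a median of -0.74. In clone 2 only *Dppa2* (-0.02) and *L1td1* (-0.58) were lower, where 51% of all genes were, and the median was 0.23. The medians over all genes were -0.03, -0.03 and -0.01. The other 7 genes were lower in both other iPS lines and higher in clone 2, a pattern shown by 13.5% of all genes. *Tcl1* had -0.77 for the control, -0.95 for clone 1 and 0.78 for clone 2, and *Dppa3* had -0.88, -1.09 and 0.48. In pre-iPS cells 5 of 9 were lower, where 51.6% of all genes were, with values between -0.80 (*Tcl1*, 4 and 2 reads) and 0.40 (*Dppa5a*). These differences between lines were not tested.

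**Figure D5:**
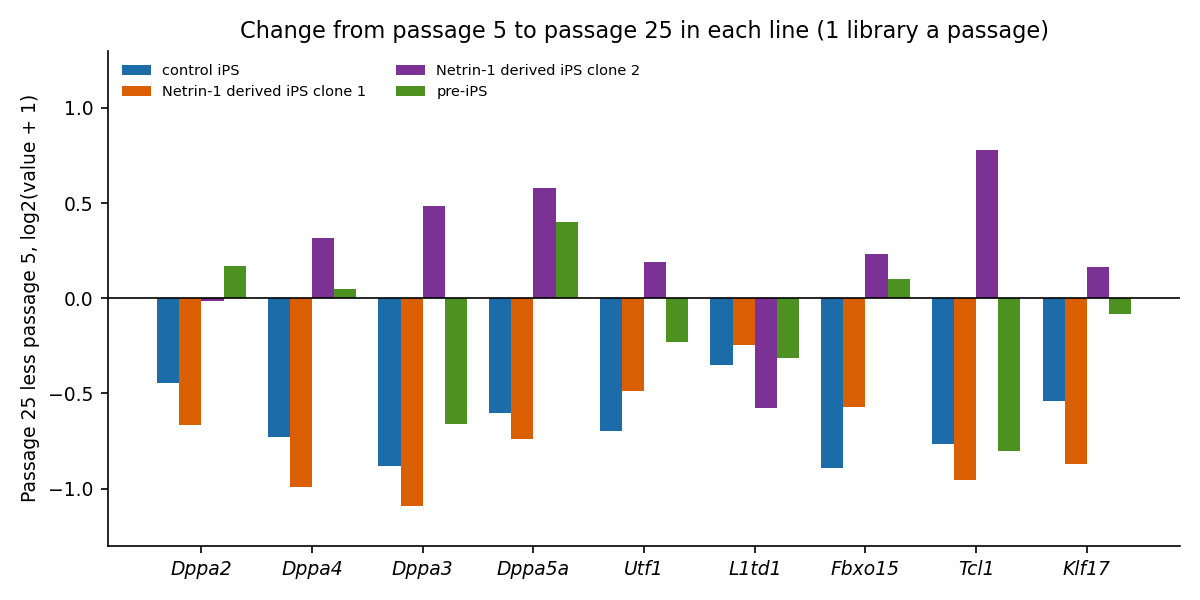
Change in log2(value + 1) from passage 5 to passage 25 in each of 4 lines for the 9 genes, 1 library at each passage and thus no error bar. Bars of the control line and clone 1 lie below 0 for every gene, and bars of clone 2 lie above 0 for 7 of 9.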

How the data were processed

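Poly(A) RNA of 5 mouse lines was sequenced in 10 libraries (2 passages a line). Per the submitters' processing notes, reads were handled with CASAVA 1.8.2, TopHat2 2.0.8b, HTSeq 0.5.3p9 and edgeR on mm10; the annotation and counting strand are not given in the sources used here. The authors deposited a normalized signal per gene, edgeR pseudo-counts at a common library size. Whole reads (within 0.1 read) were recovered for 100% of values in each library. Of 18901 genes, the 17075 that reached a value of 10 in 2 or more libraries were tested on log2(value + 1) with limma 3.58.1 in R 4.3.3 (eBayes with trend, 1 mean per line over 10 libraries, Benjamini-Hochberg over all genes), which understates the fold of low genes. Passage was tested over 8 libraries with the line as a block. Alternatives were pseudocounts of 5 and 0.5, other filters, quantile normalization, scaling to *Gapdh*, *Actb*, *Hprt* and *Tbp*, adjusted p alone, only the lines compared, a passage block and leaving out each library. edgeR 4.0.16 (quasi-likelihood test) and DESeq2 1.42.0 on recovered reads were chosen after seeing the data. Passage numbers pair the libraries: deviations from line means correlated at 0.235 to 0.504 over 6 pairs of lines. Positions are from GENCODE M21 (GRCm38); exon length is the union of annotated exons. Promoters are from RefSeq, with 4 of 9 genes matched. All 9 genes and the context and marker lists were named, and they were chosen with earlier results of these data known; for likeness the 3 genes with the highest Pearson's r were taken. Poisson intervals (95%) and the floor of 3 reads cover counting error only.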

Additional observations from a re-analysis of the deposited data

Results flagged for a closer look

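For 7 of the 9 genes the change from passage 5 to passage 25 went down in the control line and in clone 1 and up in clone 2, on log2(value + 1). The clone 2 change was 0.32 for *Dppa4*, 0.48 for *Dppa3*, 0.58 for *Dppa5a*, 0.19 for *Utf1*, 0.23 for *Fbxo15*, 0.78 for *Tcl1* and 0.16 for *Klf17*. Each line has 1 library at each passage, so the difference between lines was not tested, and 13.5% of all genes showed the pattern.

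In the fit over all lines the clones were called different in *Tcl1*, by 3.23 on the log2 scale (clone 2 above clone 1, limma adjusted p = 0.0222). *Fbxo15* was called too, by 1.43 (limma adjusted p = 0.0489). Neither call held in a fit of only the clones (limma adjusted p = 0.191 and 0.197). Of 10 fits that each left out 1 library, the *Tcl1* call was lost in 5 and the *Fbxo15* call in 8. Both genes were higher in 2 of 2 clone 2 libraries than in either clone 1 library. *Xist* had 140 to 173 reads in clone 1, 270 to 328 in the control line, 22128 to 22333 in clone 2 and 15713 to 22992 in pre-iPS cells. *Tcl1* stood at 265 and 155 in the control line and 4.08 and 1.92 in pre-iPS cells. *Fbxo15* stood at 7174 and 3872 in the control line and 1606 and 1723 in pre-iPS cells. A link of *Xist* to either gene was not tested.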

How the results depend on the processing

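Each line is 1 clone with 2 libraries, and several calls among the iPS lines lay near the threshold. Depth limits *Tcl1*, *Dppa3* and *Klf17* in MEF and pre-iPS libraries, where they had 0 to 11 reads. In MEF it also limits *Dppa2* (6 and 2 reads) and *Dppa4* (5 and 2 reads). The counts of genes called in pre-iPS cells against iPS lines (8) and in MEF against iPS lines (9) were the same in every setting run, and that of pre-iPS cells against MEF was 7 to 9. Over all genes, the split of higher and lower calls in pre-iPS cells against iPS lines was 804 and 1977, and 1483 and 1426 after quantile normalization. Scaling to 4 housekeeping genes moved the median of all genes in MEF against iPS lines from -0.09 to 0.30 (splits 3690 and 4547, then 5075 and 3647) and in pre-iPS cells against MEF from 0.06 to -0.34 (3820 and 3563, then 2887 and 5006), with no change in the members called in these comparisons. For both clones against the control, the 1 call became 0 in a fit of only the lines compared and 0 to 1 when a library was left out. In clone 1 against the control, 0 became 1 with a pseudocount of 5 or quantile normalization, 2 with edgeR, 4 with DESeq2, and 0 to 1 when a library was left out. In clone 2 against the control, 0 became 2 with a pseudocount of 5, quantile normalization or DESeq2, 1 with edgeR, and 0 to 1 when a library was left out. Between the clones, 2 became 1 with a pseudocount of 0.5, a mean filter of 50 or housekeeping scaling, 0 with only the lines compared, and 0 to 2 when a library was left out. For passage, 0 became 1 with the adjusted p alone and stayed 0 when a library was left out. With the passage as a replicate block, the paired fit called 2 genes in clone 1 and 2 in clone 2 against the control, and it changed no other count. Over all genes, calls for clone 1 went from 240 to 322 (pseudocount of 5), 372 (quantile normalization), 283 (edgeR) and 510 (DESeq2). For clone 2 they went from 413 to 551, 594, 465 and 667 in that order. Between the clones they went from 165 to 121 (pseudocount of 0.5), 106 (mean filter), 146 (housekeeping scaling) and 6 (only the lines compared). For both clones, only the lines compared gave 134, against 360. For passage, the adjusted p alone gave 1869, against 289. The cause of these changes was not tested.

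Signs of log2 fold changes turned in 26 fits of single genes, all when a library was left out; the ranges over the libraries left out follow. In pre-iPS cells against iPS lines *L1td1* ranged from -0.080 to 0.24 and also turned without clone 2 passage 25 (-0.017). In both clones against the control, where leaving out the control's passage 25 or 5 gave the ends, *Dppa3* ranged from -0.84 to 0.040, *Utf1* from -0.43 to 0.27 (0.040 without clone 1 passage 25), *Fbxo15* from -0.82 to 0.069 and *Tcl1* from -0.15 to 0.62 (-0.0023 without clone 1 passage 5). With the same ends, *Utf1* in clone 1 against the control ranged from -0.59 to 0.11 (0.0066 without clone 1 passage 25), and in clone 2 against the control *Dppa4* ranged from -0.28 to 0.44 (-0.079 without clone 2 passage 25), *Dppa3* from -0.31 to 0.57 (-0.11 without it), *Utf1* from -0.28 to 0.42 (-0.023 without it), *Dppa5a* from -0.52 to 0.080 (0.067 without clone 2 passage 5) and *Fbxo15* from -0.11 to 0.78. Between the clones *L1td1* ranged from -0.22 to 0.36 (clone 2 passage 5 or 25 left out, and -0.052 without clone 1 passage 25) and *Klf17* from -0.25 to 0.62 (clone 1 passage 25 or 5 left out). For passage *Dppa5a* ranged from -0.31 to 0.12, and was 0.080 without either control library. None of these genes was called in the comparison concerned, over all libraries or in these fits.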
